A study of Mus musculus with 12 samples.

Results

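The long copies of the ERV1 family of endogenous retroviruses were examined in chromatin-associated RNA of mouse embryonic stem cells enriched for N6-methyladenosine (m6A). A member is a locus of the repeat table whose family is exactly LTR/ERV1 and whose end lies at least 5000 bp beyond its start. The rule found 613 copies among 67201 ERV1 loci and 4929385 repeat loci in all, and no read count entered it. They ran from 5040 to 7772 bp with a median of 7495 bp. Just outside the length limit lay loci of 4974 bp on chromosome 9, with a mean of 0.33 reads per library, and of 4917 bp on chromosome 2, with 29.2 reads. Just inside lay loci of 5040 bp on chromosome 9, with 2.67 reads, and of 5099 bp on chromosome X, with 1 read.

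ERV1 elements are the class I endogenous retroviruses, relatives of gammaretroviruses such as murine leukaemia virus. An intact provirus carries gag, pol and env genes between a pair of long terminal repeats (LTRs) that were identical when it inserted, and repeat annotations usually list the LTRs and the internal part as separate entries. In embryonic stem cells such elements are known to be held largely silent by KRAB zinc finger proteins with TRIM28 and the histone methyltransferase SETDB1. ALKBH5 is an enzyme that removes m6A from RNA.

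The cells were E14TG2a, an established male mouse embryonic stem cell line grown with LIF. They were either wild type (WT), labelled Alkbh5 KO, or labelled Alkbh5 del-cIDR, written ΔcIDR here; the series title concerns intrinsically disordered regions. Each genotype has 2 replicates. GEO lists an input and an immunoprecipitated sample for each replicate, but a table has 6 columns whose names do not tell which they are. They were taken as the immunoprecipitated libraries, which is an assumption; input was not analysed here. ΔcIDR was given the KI columns because no other genotype was left for them, and the KO columns both carry the name KO6, with no word on whether that is 1 clone. Nothing says that replicates came from separate cultures, so the tests measure the spread between these libraries, which may be technical. Without input, RNA abundance and the methylated share of an RNA cannot be told apart in any value below. Markers of the cell type and Alkbh5 itself were not used here, since the tables name loci and not genes.

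Each deposited value equals the reads of a locus multiplied by a factor of that library, chosen so that the m6A-modified spike-in RNA has the same value in all 6. That spike-in drew 1172 and 1106 reads (WT), 1379 and 1870 (KO) and 814 and 849 (ΔcIDR). The unmodified one drew 4580 and 1729, 4364 and 2679, and 5127 and 4239, which is more in every library. Relative to the modified one it was highest in both ΔcIDR libraries. The amounts added are not stated, so enrichment cannot be read from them. Whether it differed between libraries was not tested. The repeat table held 20922839 to 26267351 reads per library. Of these, the long copies took 15899 and 16620 reads (WT), 19773 and 19173 (KO) and 14998 and 14874 (ΔcIDR), which is 0.0686% to 0.0822% of all repeat reads. They held 4.08% to 5.07% of the ERV1 reads. Per kilobase of annotation, long ERV1 copies averaged 3.77 reads per library, against 14.0 for shorter ERV1 loci. Among loci of at least 5000 bp, ERVK averaged 6.77, ERVL 33.5 and LINE/L1 3.94. Whether reads that match several copies were kept is not stated, so the counts of near-identical copies are uncertain.

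Most reads came from few copies, and chromosome Y held many copies with hardly a read. Of the 613 copies, 238 had no read in any library. Chromosome Y held 265 copies, of which 219 had no read, and their density was 0.0287 reads per kilobase. The 294 autosomal copies held 98.3% of the reads at 7.83 reads per kilobase, and only 10 of them had no read. The 45 copies on chromosome X reached 0.636 reads per kilobase, and 9 copies lay on unplaced scaffolds. The 10 copies of highest signal held 54.4% of all member reads. How far reads on chromosome Y copies were lost to copies of like sequence was not tested.

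The interval table, which lists genomic stretches with their signal and is taken as the labels' m6A matrix, holds 74299 rows, and 414 of them touched 119 of the 613 copies. All but 1 of these intervals lay wholly inside the copy. A touched copy had a median of 4 intervals and at most 9, and a median of 21.3% of its length was covered. The 3 copies with most intervals were chr4:95142922-95150473 with 9, chr2:94631839-94639392 with 8 and chr1:83959259-83966813 with 7. Coordinates are on GRCm39 as deposited, and whether a start counts from 0 or 1 is not stated. Which genes the copies lie in or near was not analysed here, since the reference tables at hand are on another build.

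Overlap with intervals varied with the length of the ERV1 pieces that abut a copy's ends. An ERV1 locus within 20 bp of each end, with lengths within 5 bp of each other, was found for 401 of the 613 copies, and these paired pieces have the layout of the LTRs of a provirus. The lengths of the pieces fell into separate classes, whose bounds were chosen after lengths and overlaps had been seen, so the counts below are a description with no test. All 34 copies with flanks of 419 to 430 bp lay under intervals. The same held for all 17 copies with flanks of 696 to 697 bp and all 11 with flanks of 740 to 746 bp. These 62 copies were spread over 19 chromosomes and held 269 of the 414 intervals, while 38 of the 119 copies under intervals had no paired flanks. Over all chromosomes, 20.2% of copies with paired flanks and 17.9% of those without lay under intervals. Chromosome Y held 204 of the 401 copies with paired flanks, and 1 of its 265 copies lay under an interval. On autosomes, 165 of all 294 copies had paired flanks, and 74 of the 110 under intervals had them. Of 147 copies with flanks of 532 to 572 bp, 19 lay under intervals. Of 188 copies with flanks of 623 to 640 bp, 183 of them on chromosome Y, none lay under an interval, and 169 had no read.

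**Figure D1:**
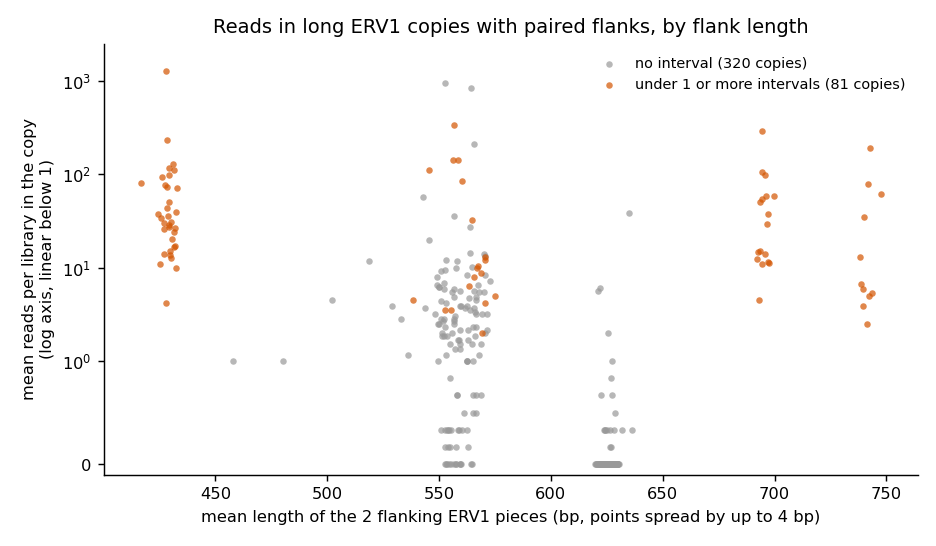
Mean reads per library in each of the 401 long ERV1 copies with paired flanking ERV1 pieces (vertical axis, log scale, linear below 1) against the mean length of those pieces in bp. Orange copies lie under at least 1 interval (81) and grey ones under none (320); every copy in the classes near 429, 696 and 740 bp is orange, and the class near 626 bp sits mostly at 0 reads.

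The classes also differed in reads. The copies with flanks of 419 to 430 bp had 11.5 reads per kilobase, a median of 32.4 reads per copy and library, and a lowest copy of 4.17. Those with flanks of 696 to 697 bp had 6.81 reads per kilobase and a median of 29.5 reads per copy. Those with flanks of 740 to 746 bp had 4.94 reads per kilobase and a median of 6.67. In the class of 532 to 572 bp the median copy had 2.83 reads, while the highest had 943. How the intervals were drawn from the reads is not stated, so overlap and read density may not be independent measures. In copies with paired flanks that passed the filter on low signal described below, the body had a median of 4.09 reads per kilobase and the flanks 0.971, and the body was denser than its flanks in 71 of 83. That filter was set on the signal of the body and not on that of the flanks, so it favours a denser body. Copies that did not pass it are not in this comparison.

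Within a class, intervals recurred at like distances from the ends of the copy. The strand of a copy is not in the files, so distance was taken from the centre of an interval to the nearest end. In the class of 696 to 697 bp, 27 of 63 intervals lay between 1500 and 2000 bp from an end, in 15 of the 17 copies, and none lay between 1000 and 1500 bp or between 2000 and 2500 bp. With flanks of 740 to 746 bp, 15 of 42 intervals lay between 1500 and 2000 bp and 15 between 2500 and 3000 bp, and none within 1000 bp of an end. With flanks of 532 to 572 bp, 18 of 28 intervals lay between 1500 and 2000 bp, in 17 of 19 copies. In the class of 419 to 430 bp the intervals were spread more widely, with 44 of 164 between 1500 and 2000 bp and 26 between 3500 and 4000 bp. Copies without paired flanks also had intervals between 1500 and 2000 bp. These were 14 of 40 with unequal flanks and 20 of 77 with a flank at 1 end. Copies of a class may share sequence, so they are not independent observations of a site.

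**Figure D2:**
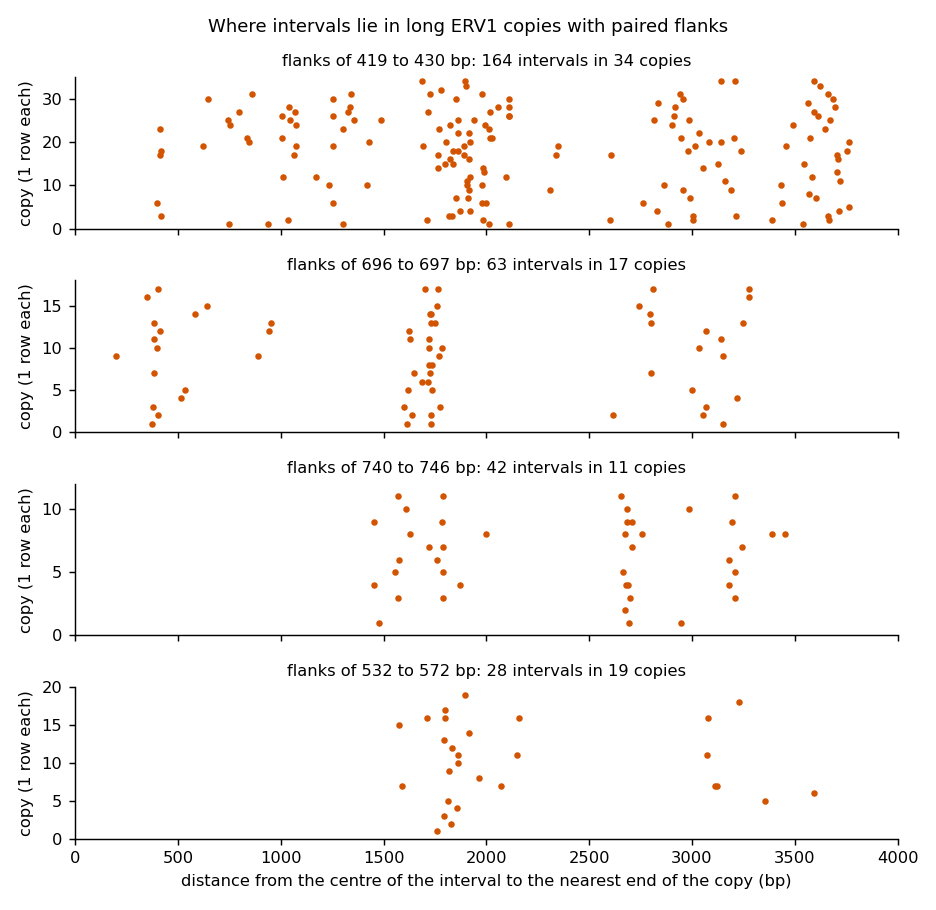
Distance in bp from the centre of each interval to the nearest end of its long ERV1 copy (horizontal axis), with 1 row per copy, in 4 classes of flank length. In all 4 classes intervals gather between 1500 and 2000 bp from an end (44 of 164, 27 of 63, 15 of 42 and 18 of 28 from top to bottom).

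Many of these intervals held few reads. Over the 6 libraries together an interval in a long ERV1 copy had a median of 10 reads, against 54 for all intervals of the table. At most 3 reads were found in 82 of the 414 intervals (19.8%, against 8.82% of all intervals), and 29 had none. The share with at most 3 reads was 31.7% in the class of 696 to 697 bp, 33.3% in that of 740 to 746 bp and 14.0% in that of 419 to 430 bp. Of the reads in touched copies, 38.4% lay inside intervals.

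The highest signal belonged to chr10:41674099-41679521, a copy of 5422 bp with 3 intervals and a flank of 231 bp at 1 end. Its signal was 5259 and 5013 (WT), 5670.1 and 3843 (KO) and 7315 and 8209 (ΔcIDR), with 2043 to 2881 reads per library. The ΔcIDR libraries lay above the WT libraries, and the KO libraries straddled them. The second highest, chr12:41315834-41323383, is a copy of 7549 bp with flanks of 427 and 429 bp and 1 interval. Its signal was 3198 and 3514 (WT), 2982 and 2081 (KO) and 3264 and 3279.8 (ΔcIDR). The third, chr4:11177985-11183871, gave 2040.1 and 2022 (WT), 3582 and 2401 (KO) and 2511 and 2391 (ΔcIDR). The longest copy, chr17:33263487-33271259 with 7772 bp, had signals from 20.3 to 36.7 and 1 interval, and the next longest had 0 to 10.0 (chr12:22517788-22525531) and 6.67 to 19.2 (chr10:47623913-47631655).

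Summed over all 613 copies, the signal was 36817 and 40784 (WT), 38915 and 27826 (KO) and 50006 and 47548 (ΔcIDR). The ΔcIDR libraries were the highest pair, and the KO libraries lay on both sides of the lower WT library. The log2 difference of group means was -0.24 ± 0.25 (SE, n = 2 and 2) for KO against WT, 0.33 ± 0.08 for ΔcIDR against WT and 0.57 ± 0.24 for ΔcIDR against KO. Their exact two-sided permutation p was 0.67, 0.33 and 0.33, and 0.33 is the smallest that 2 libraries against 2 can give. The order of the genotypes turned with the scale. With libraries scaled by ERCC reads, the same differences were 0.17, -0.33 and -0.49, and with libraries centred on their median tested repeat locus 0.060, -0.0064 and -0.066. In limma over 63 repeat classes, long ERV1 copies had adjusted p values of 0.668, 0.459 and 0.103 as deposited, beside 0%, 0% and 22.2% of classes called, and 0.616, 0.453 and 0.0902 after centring on the median class, beside 12.7%, 4.76% and 39.7%. With each class split by overlap with intervals, into 105, the long ERV1 copies were not called in any comparison as deposited (0.952%, 0% and 52.4% of split classes called). Centred on the median split class, which is another reference point, they were lower in ΔcIDR than in KO both under intervals (-0.37 ± 0.08, limma adjusted p = 0.0015) and outside (-0.28 ± 0.08, 0.0081), beside 61% of split classes called. They were not called there in KO against WT (18.1%) or in ΔcIDR against WT (12.4%). Of the 64 split classes called in ΔcIDR against KO after this centring, 56 were lower, and the median change over all 105 was -0.23.

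**Figure D3:**
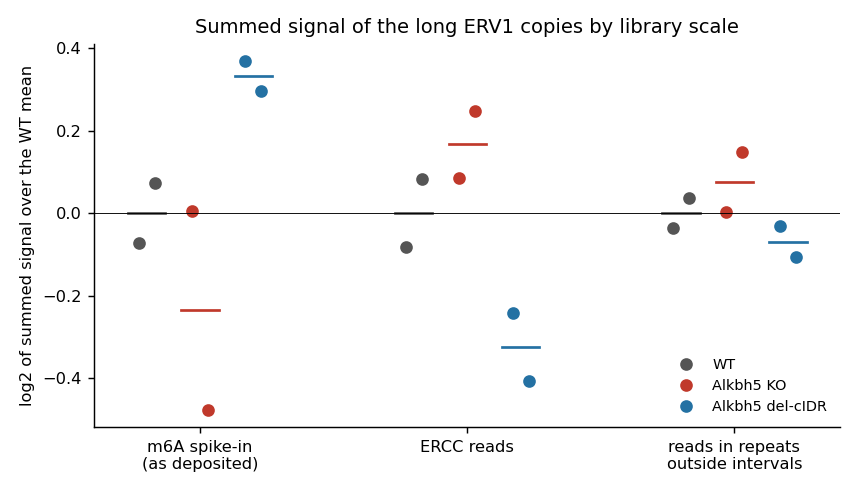
Summed signal of the 613 long ERV1 copies in each library as log2 over the WT mean (vertical axis), with the library scale set by the m6A spike-in, by ERCC reads or by reads in repeats outside intervals. Points are libraries (2 per genotype) and lines their means; ΔcIDR lies above WT by 0.33 as deposited and below it by 0.33 on the ERCC scale.

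A ratio to another class within each library cancels the scale. Against long ERVL copies, the class that holds the MERVL elements, the long ERV1 sum shifted by -0.82 ± 0.15 (log2, SE, n = 2 and 2) in KO against WT, by 0.02 ± 0.20 in ΔcIDR against WT and by 0.84 ± 0.14 in ΔcIDR against KO. The long ERVL class itself was called in KO after centring on the median class (limma, 0.90 ± 0.08, adjusted p = 1.7e-07). Against long ERVK copies the shifts were 0.26 ± 0.13, -0.18 ± 0.17 and -0.44 ± 0.14. Against shorter ERV1 loci they were 0.10 ± 0.08, -0.11 ± 0.07 and -0.22 ± 0.08. Against LINE/L1 loci of at least 5000 bp they were -0.0061 ± 0.17, 0.17 ± 0.26 and 0.17 ± 0.27. The exact permutation p of these ratios could not go below 0.33. Against the ERVL, ERVK and shorter ERV1 classes 3 of 9 p values were above it, and against LINE/L1 all were.

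Copy by copy, 146 of the 613 had a mean signal of at least 20 and entered a limma fit over 433487 repeat loci, on log2(signal + 2), so that a fold change of a low locus is understated. The other 467 had too few reads to be tested. A call is a Benjamini-Hochberg adjusted p under 0.05 over all loci fitted. On the deposited scale the median log2 change of all tested loci was -0.31 (KO against WT), 0.35 (ΔcIDR against WT) and 0.65 (ΔcIDR against KO). Whether this came from the library scale or from the RNA was not tested. Changes are therefore also given relative to the median repeat locus, called centred.

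In KO against WT, 2 of the 146 copies rose and 11 fell, with 2.58% of all tested repeat loci called (0.165% higher, 2.41% lower). Centred, 5 rose and 12 fell, with 3.35% called (1.26% higher, 2.09% lower). Scaled by ERCC reads, 9 rose and 11 fell, with 3.59% called. The higher share of calls was thus 15.4% as deposited, 29.4% centred and 45.0% on the ERCC scale. The 2 KO libraries did not overlap the 2 WT libraries in 71 of the 146 copies, beside 41.7% of all tested loci. The median change of the tested copies was -0.28, and of all tested loci -0.31. The count of 13 rested on single libraries, as it fell without either WT replicate and rose without KO replicate 1. The share called over all tested loci moved the same way. The median change of the tested copies was -0.45 without WT replicate 1, -0.17 without WT replicate 2 and -0.50 without KO replicate 1. Over all tested loci it was -0.37, -0.28 and -0.61.

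Of the 11 copies that fell, 4 lie on chromosome 12 between chr12:19587463 and chr12:24081982 and share their layout. Each has an ERV1 flank of exactly 458 bp at 1 end and none at the other, and no other of the 613 copies has that layout. The group was noticed after the values had been seen. None lies under an interval. The copy chr12:20172607-20179810 had signals of 887 and 935 (WT), 256 and 196 (KO) and 1244 and 1167 (ΔcIDR). The copy chr12:19587463-19594666, of the same length (7203 bp), had 755 and 1006, 305 and 218, and 1454 and 1419. In both, each KO library was below each WT library and each ΔcIDR library above.

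The copy chr12:22730501-22737672 (7171 bp) had 1035 and 878 (WT), 366 and 242 (KO) and 1294 and 1429 (ΔcIDR). The copy chr12:24076286-24081982 (5696 bp) had 1061 and 1190.1, 337 and 255, and 1754 and 1378. In KO against WT the 4 changed by -2.01 ± 0.33, -1.75 ± 0.33, -1.67 ± 0.33 and -1.93 ± 0.32 (log2, SE, same order), with limma adjusted p of 1.4e-06, 5.4e-05, 0.00013 and 2.7e-06. Centred, the changes were -1.72, -1.45, -1.38 and -1.63. Without WT replicate 2 only the first of the 4 kept its call, and without WT replicate 1 the third lost it too. Whether copies of equal length and flank drew each other's reads was not tested, and the 4 are not independent observations. A copy on chromosome 1, chr1:178050685-178056292, has a flank of 459 bp at 1 end, and its centred change in KO was 0.23 ± 0.15. Another copy in this stretch, chr12:20276755-20284332, with flanks of 203 and 386 bp, had 1336 and 1556 (WT), 1397 and 1026 (KO) and 2187 and 2055 (ΔcIDR). Its centred change in KO was 0.03 ± 0.14 (limma adjusted p = 0.95).

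**Figure D4:**
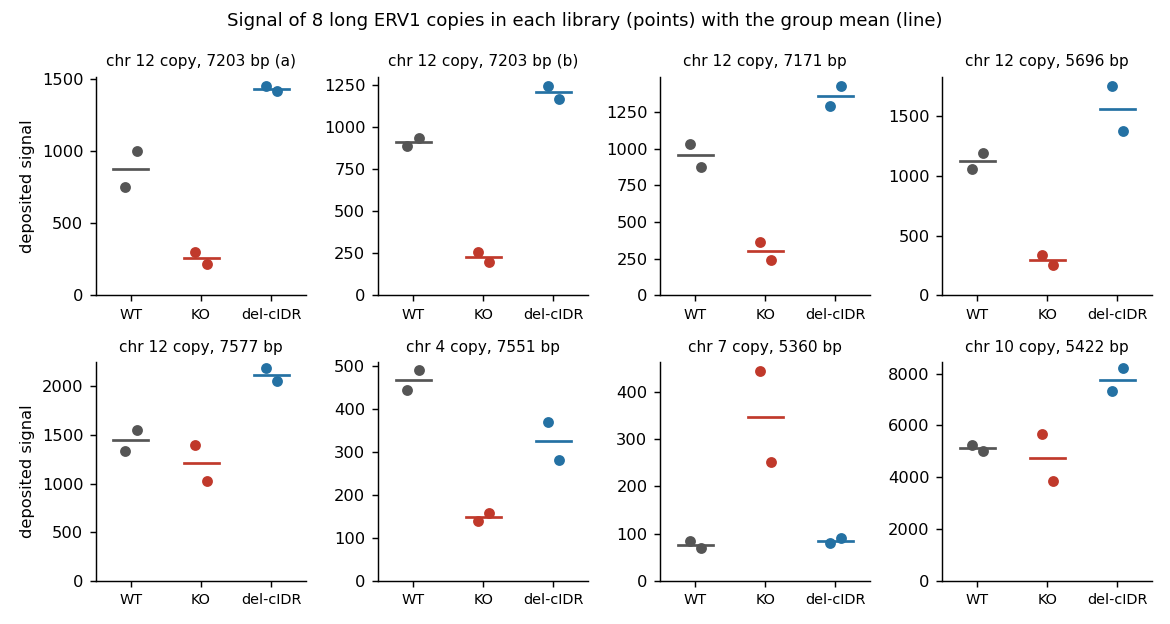
Deposited signal (vertical axes, each from 0) of 8 long ERV1 copies in the WT, Alkbh5 KO and Alkbh5 del-cIDR libraries, with a point per library and a line at the mean of 2. The upper row holds the 4 chromosome 12 copies with a 458-bp flank, where (a) starts at 19587463 and (b) at 20172607, and all KO points lie below all WT points; the lower row holds the chromosome 12 copy of 7577 bp, the chromosome 4 copy with 9 intervals, the chromosome 7 copy that rose in KO and the copy of highest signal.

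The other 7 copies that fell were scattered. The lowest fold was at chr5:105069311-105076768, a copy with flanks of 640 and 636 bp, where WT gave 120.4 and 118, KO 33.5 and 5.81 and ΔcIDR 227 and 137 (-2.86 ± 0.46 in KO against WT, limma adjusted p = 5.7e-07). It rests on 17 and 4 reads in KO. The copy chr3:96994256-96999751 gave 92.6 and 115 (WT), 31.5 and 10.2 (KO) and 137 and 166 (ΔcIDR), and changed by -2.38 ± 0.46 in KO (limma adjusted p = 0.0001). The copy chr9:6805327-6812989 gave 88.0 and 118, 31.5 and 17.4, and 167 and 169, and changed by -2.03 ± 0.45 (limma adjusted p = 0.0014). In all 3 no KO library reached a WT library.

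The copy with most intervals, chr4:95142922-95150473, also fell. It gave 445 and 491 (WT), 139.7 and 158 (KO) and 370.1 and 281 (ΔcIDR) (-1.64 ± 0.36 in KO, limma adjusted p = 0.0012). With chr9:25766956-25774510 (-1.37 ± 0.37) and chr14:53801524-53809040 (-1.61 ± 0.36) it makes 3 that fell in the class of 419 to 430 bp. The ΔcIDR libraries here lay between the KO and the WT libraries. The copy chr4:146417030-146424605, with 1 interval, gave 248 and 385 (WT), 112 and 69.7 (KO) and 457 and 469.9 (ΔcIDR), and changed by -1.78 ± 0.37 in KO (limma adjusted p = 0.00045). Except at the chromosome 5 copy, the calls of all 7 were lost without WT replicate 2. Those of chr9:6805327, chr4:95142922, chr9:25766956 and chr14:53801524 were also lost without WT replicate 1.

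Of the 2 copies that rose on the deposited scale, chr7:11215552-11220912 gave 83.4 and 68.7 (WT), 443 and 251 (KO) and 80.0 and 89.5 (ΔcIDR). Its reads were 36 and 28, 225 and 173, and 24 and 28. The KO libraries were above the other 4, and the change in KO was 2.11 ± 0.41 (limma adjusted p = 9.3e-05), lost without WT replicate 2. The copy chr1:118070501-118078101 gave 9.26 and 22.1, 82.7 and 56.6, and 26.7 and 16.0 (2.10 ± 0.62, limma adjusted p = 0.033); that call held in 1 of the 6 fits with a library left out. After centring, 3 more copies rose. At chr4:11177985-11183871 the centred change was 0.83 ± 0.13 (limma adjusted p = 0.00038), at chr8:73972845-73980430 it was 0.72 ± 0.13 (0.0023) and at chr1:52352300-52359859 it was 1.23 ± 0.30 (0.021).

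Around copies called in KO, the neighbouring repeats mostly had a change of the same sign. For each copy, the signal of all non-ERV1 repeat loci within 10 kb was summed, where that sum averaged at least 10 reads per library. Of the 12 copies that fell in KO after centring, 11 had such neighbours, and these were below 0 at 10, with a median of -1.34. Around the 4 copies with the 458-bp flank the neighbours' centred changes were -1.67, -1.59, -1.67 and -1.32 in the order used above, and around chr12:20276755 the value was 0.02. Of the 5 that rose, 4 had neighbours above 0. Across the 100 tested copies with neighbours, Pearson's r between the 2 centred changes was 0.60 in KO against WT, 0.23 in ΔcIDR against WT and 0.55 in ΔcIDR against KO, with library and locus shared by both values of a point and no p attached. This relation was looked at after the values had been seen.

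Some copies departed from their surroundings. At chr4:11177985 the copy's centred change in KO was 0.83 and that of its neighbours, with 1581 reads per library, -0.73. At chr9:25766956-25774510, a copy of the 419 to 430 bp class, they were -1.07 and 0.33, and at chr7:11215552 2.41 and 0.56. The copy chr4:95142922 had nearly no reads around it (0.167 per library). Whether neighbours share a transcript with the copy was not tested. The chr8 copy lies on a chromosome whose tested repeat loci had a median centred change of 0.29 in KO, as had chromosome 6 (0.33), against -0.11 to 0.07 on the other autosomes and X; its neighbours stood at 0.53.

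**Figure D5:**
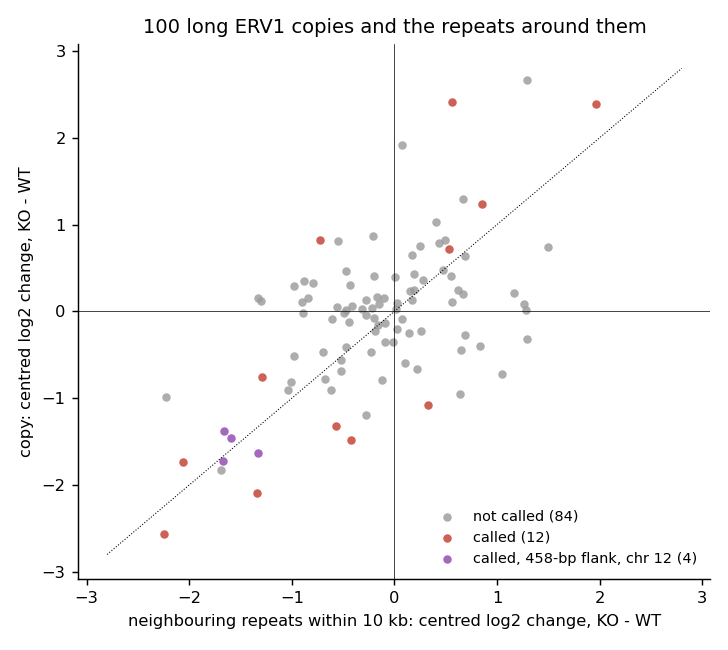
Centred log2 change in KO against WT of 100 long ERV1 copies (vertical axis) against that of the other repeats within 10 kb (horizontal axis), with a dotted line of equality. Red and purple copies were called in the centred fit (12 and 4), purple being the chromosome 12 copies with a 458-bp flank, which lie close to the line at about -1.3 to -1.7 on both axes.

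In ΔcIDR against WT, none of the 146 copies was called by limma on the deposited scale (0.0651% of all tested loci called, 0.0452% higher and 0.0198% lower) or after centring (0.0957% called, 0.0411% higher and 0.0547% lower), and none by edgeR on the recovered reads. At an unadjusted p under 0.05 there were 16 as deposited (10.96%, against 9.93% of all tested loci) and 24 centred (16.4%, against 8.99%). The ΔcIDR libraries did not overlap the WT libraries in 72 of the 146 copies, beside 48.3% of all tested loci. The median change was 0.38, and 0.35 over all tested loci. The 4 chromosome 12 copies with the 458-bp flank had centred changes of 0.06, 0.38, 0.17 and 0.13 (same order), and chr7:11215552 one of -0.18. Scaled by ERCC reads, 6 copies were lower, with 0.425% of all loci called. Without KO replicate 1 or KO replicate 2, whose spread the fit shares, 6 were higher, with 1.63% and 1.47% called.

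In ΔcIDR against KO, 30 of the 146 copies were higher and 2 lower, with 19.2% of all tested repeat loci called (18.4% higher, 0.711% lower), and 99 did not overlap, beside 58.4%. After centring, 12 were higher and 14 lower, with 10.4% called (5.85% higher, 4.59% lower). Scaled by ERCC reads, the balance turned to 9 higher and 28 lower, with 17.3% called. The higher share of calls was thus 93.8% as deposited, 46.2% centred and 24.3% on the ERCC scale. The count of 32 fell without either ΔcIDR replicate and rose without KO replicate 1, and the share called over all tested loci moved the same way. The median change of the tested copies was 0.67 without ΔcIDR replicate 1, 0.77 without ΔcIDR replicate 2 and 0.87 without KO replicate 1. Over all tested loci it was 0.65, 0.67 and 0.96. This comparison shares its KO libraries with KO against WT, so its values stand beside those above and do not repeat them. Centred, the 4 chromosome 12 copies changed by 1.78, 1.84, 1.55 and 1.76, and chr12:17847502-17852910 by 2.04 ± 0.63 (limma adjusted p = 0.039), the latter on 2 to 27 reads per library. The copy chr7:11215552 changed by -2.59 ± 0.28 centred (limma adjusted p = 1.1e-06), and chr1:118070501 by -2.27 ± 0.54 (0.0072).

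Of the 10 copies of highest signal, 3 were called higher in ΔcIDR than in KO as deposited and 0 lower. After centring 2 of the 10 were higher, and 5 were lower. The 5 lower ones are chr4:11177985 (-0.89 ± 0.13, limma adjusted p = 4.5e-05), chr8:73972845 (-0.94 ± 0.13), chr12:81471291-81476781 (-0.90 ± 0.14), chr1:178050685-178056292 (-0.65 ± 0.15) and chr11:75248232-75255892 (-0.55 ± 0.14, limma adjusted p = 0.01). None of the 5 was called on the deposited scale. Shallower copies that were also lower after centring include chr7:56570673-56578330 (-2.17), chr11:121202419-121208437 (-1.46), chr6:58794658-58802214 (-1.40) and chr7:42164971-42172699 (-1.32). Over all tested repeat loci the median centred change in this comparison was -0.47 on chromosome 6, -0.48 on chromosome 8 and -0.04 on chromosome 11, and 5 of the 14 copies lower after centring lie on these 3 chromosomes. Of the copies with flanks of 532 to 572 bp, 2 of 27 tested were higher and 5 lower after centring, with a median of -0.43. Of those with flanks of 419 to 430 bp, 1 of 33 was higher and 1 lower, with a median of 0.13. Over all tested repeat loci 5.85% were higher and 4.59% lower, with a median of 0.015.

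Copies under intervals had more reads than the others. How the intervals were drawn from the reads is not stated, so this difference may follow from how they were drawn. The 119 copies under intervals had 12.8 reads per kilobase and none was without a read, while the 494 outside had 1.62 and 48.2% had none. On autosomes alone the densities were 13.8 over 110 copies and 4.28 over 184. Among tested copies, 98 under and 48 outside, the median log2 signal under minus outside, each copy set against its own mean, was -0.06 and -0.00029 (WT), 0.04 and -0.12 (KO) and -0.06 and -0.19 (ΔcIDR). The difference of KO from WT was -0.01 ± 0.09 (exact permutation p = 1), of ΔcIDR from WT -0.09 ± 0.07 (0.33) and of ΔcIDR from KO -0.09 ± 0.10 (0.67), with n = 2 and 2, where no p below 0.33 is possible. In KO against WT, 1 copy under intervals rose and 4 fell, and outside intervals 1 rose and 7 fell, beside 0.165% higher and 2.41% lower over all tested repeat loci. The 7 include the 4 chromosome 12 copies with the 458-bp flank, which are not independent observations. The sums moved by -0.20 ± 0.26 under and -0.30 ± 0.23 outside in KO against WT, and by 0.34 ± 0.09 and 0.32 ± 0.07 in ΔcIDR against WT.

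Of the 414 intervals in long copies, 76 had the mean signal of at least 1 needed to enter the limma fit over 37759 intervals (18.4%, against 50.8% of all intervals). In KO against WT 9 fell and none rose, with 11% of all tested intervals called (10% lower, 0.985% higher), and after centring 7 fell and 3 rose, with 12% called (7.28% lower, 4.68% higher). The 3 that rose after centring all lie in chr4:11177985, whose 4 intervals had centred changes of 0.87, 0.99, 0.66 and 0.90, with reads of 164 and 143 in WT and 344 and 299 in KO in the deepest. In chr4:95142922 2 intervals fell. The deeper gave 87 and 62 reads (WT), 24 and 37 (KO) and 41 and 28 (ΔcIDR), a change of -1.62 on the deposited scale, and the other changed by -1.65. The interval of chr9:25766956 with 322 reads in all changed by -1.67, and the deeper of chr14:53801524-53809040 by -1.79. In ΔcIDR against WT 1 interval rose and none fell, with 1.13% called (1.04% higher, 0.0874% lower). It lies in chr3:55485847-55493389 (1.26, limma adjusted p = 0.045) and was not called by edgeR or after centring, where limma called none of the 76 (0.305% of all called, 0.167% higher and 0.138% lower) and 13 had an unadjusted p under 0.05 (17.1%, against 14.2% of all tested intervals). In ΔcIDR against KO 18 were higher and none lower, with 48.8% called (47.3% higher, 1.57% lower). After centring 2 were higher and 8 lower, with 27.5% called (17.6% higher, 9.92% lower). The count of 9 in KO against WT fell without either WT replicate or KO replicate 2. That of 18 in ΔcIDR against KO fell without KO replicate 2 or ΔcIDR replicate 1. The share called over all tested intervals fell in each of these fits too. The median change of the tested member intervals was -0.40, -0.18 and -0.10 in the first 3 fits, and 0.48 and 0.49 in the other 2. Over all tested intervals it was -0.43, -0.27 and -0.12, and 0.56 and 0.75.

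The copies on chromosome Y were too shallow for single tests, as 1 of 265 passed the filter. Summed, they had 58 and 86 reads (WT), 66 and 77 (KO) and 25 and 26 (ΔcIDR), or signals of 134 and 211, 129.9 and 112, and 83.4 and 83.1. The ΔcIDR libraries were the lowest pair. Relative to all other repeats on chromosome Y, the sum changed by -0.96 ± 0.20 in ΔcIDR against WT and by -0.70 ± 0.24 in KO against WT (log2, SE, n = 2 and 2, exact permutation p = 0.33 for both, the smallest possible). The cause was not tested.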

How the data were processed

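Per the labels' protocols, RNA of the chromatin-associated fraction was depleted of ribosomal RNA, mixed with m6A spike-in RNA, fragmented and immunoprecipitated. Per the submitters' processing notes, the tools were bedtools, featureCounts, MACS2, Picard, SAMtools, HISAT2 and fastp, with GRCm39; versions and roles are not given in the sources used here. The deposited signal of both tables is reads times 1 factor per library, and 100% of values were whole reads within 1e-06.

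Long ERV1 copies were selected by name and length, a copy counted as under an interval at any overlap (bedtools 2.31.1), and intervals were tested where at least 50% of them lay in a copy. Tests used limma 3.58.1 in R 4.3.3 on log2(signal + 2) for loci of mean signal at least 20, and log2(signal + 0.5) for intervals of mean signal at least 1, with 1 mean per genotype and all 6 libraries in 1 fit. edgeR 4.0.16 on recovered reads was an alternative. The scripts were tested on simulated data. Sums and medians were compared by exact permutation. The members, classes and lists were chosen with earlier results of these data known. Named copies are the 10 of highest mean signal, the 3 longest, the 3 with most intervals and, per comparison and direction, up to 6 called copies of largest change without overlap, as deposited and centred; others were named after their values had been seen, among them chr9:25766956, chr14:53801524 and chr3:55485847. No sequence is printed, since no genome of this build was used here. Same-numbered libraries were not treated as pairs, since their deviations correlated by 0.02, 0.10 and 0.05 over 146 copies.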

Additional observations from a re-analysis of the deposited data

How the results depend on the processing

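Depth limits what can be said: 467 of 613 copies and 338 of 414 intervals were below the filters, and the scale of the deposited values rests on at most 1870 spike-in reads. Counts of called copies were 20 in KO against WT on the ERCC scale (9 higher, 11 lower, 3.59% of all loci called) and 20 by edgeR with TMM (8 higher, 12 lower, 4.59%), against 2 higher and 11 lower as deposited, 0 by limma with no filter on low values (42 at an unadjusted p under 0.05), and 2 to 25 with 1 library left out; in ΔcIDR against WT 6 on the ERCC scale and 0 to 6 with 1 library left out; in ΔcIDR against KO 37 on the ERCC scale (9 higher, 28 lower, 17.3%), 7 with no filter and 12 to 56 with 1 library left out. With the replicate block, which the pairing check did not call for, 12, 0 and 28 copies were called (1.68%, 0.0318% and 15.3% of all loci). It called 7, 0 and 14 intervals (6.28%, 0.238% and 40.2% of all intervals). Called intervals were 5 in KO against WT at a mean signal of at least 4 and 3 to 12 with 1 library left out, 0 in ΔcIDR against WT centred or by edgeR and 0 to 5 with 1 library left out, and 10 in ΔcIDR against KO centred and 7 to 24 with 1 library left out. Summed signal in KO against WT, ΔcIDR against WT and ΔcIDR against KO was 0.060, -0.0064 and -0.066 centred, 0.17, -0.33 and -0.49 on the ERCC scale, and 0.075, -0.0697 and -0.14 scaled by repeats outside intervals; without the locus of highest signal, chosen after seeing the data, it was -0.25, 0.29 and 0.54. The under-minus-outside difference in KO against WT was 0.19 at a mean signal of at least 60, -0.18 at 6000 bp and 0.098 without chromosomes 6, 8 and 11, and ran from -0.17 to 0.085 with 1 library left out. In ΔcIDR against WT it ran from -0.26 to -0.00974. In ΔcIDR against KO it was -0.24, 0.13 and -0.21 in the same order and 0.031 at 4000 bp, and ran from -0.24 to 0.057. Of the named copies, 1 result was labelled as reversed: chr12:20276755-20284332 in ΔcIDR against KO was -0.23 on the ERCC scale (limma adjusted p = 0.25). That label does not cover every change of sign. In ΔcIDR against KO the copies of highest and second highest signal were higher as deposited and lower on the ERCC scale. The direction of the other named copies is therefore not shown to hold across scales. With 1 library left out, the counts of called copies and intervals moved, and so did the share called over all tested loci or intervals. The cause of these shifts was not tested.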
